A study of Rattus norvegicus with 7 samples.

Results

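The values of 4 of the 7 arrays of this time course were compared in 2 windows of cyclic tensile stress, with the arrays of 12 and 24 hours (the later window) set against those of 2 and 6 hours (the earlier window). The arrays were chosen by the hours in their titles, and the array of 0 hours took no part in the comparison. Spinal cord cells of Sprague-Dawley rat embryos at embryonic day 15 were grown on flexible membranes and strained by 10% at 0.5 Hz, and all 4 arrays came from strained cells. Each array held RNA pooled from 5 animals, with 1 array per time. No unstrained culture of the later times was analysed here, so hours of strain and hours in culture cannot be told apart. The culture was mixed, since the meninges and dorsal root ganglia had been stripped but no cell type was selected, and the strain is not the same at every point of a flexed membrane. In such bulk RNA, fewer cells of a type and less RNA per cell cannot be told apart.

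Cultures of embryonic spinal cord hold neurons, astrocytes and their precursors, microglia and fibroblasts. Immediate early and stress genes are known to respond within the first hours, while genes of metabolism, cell identity and the cell cycle follow later. Microglia, the resident macrophages of the cord, make the complement component C1q, which tags synapses and debris for removal. Cells adjust cholesterol synthesis through SREBP2, a transcription factor that is held in the membrane of the endoplasmic reticulum by INSIG proteins when sterols are plentiful.

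The authors deposited a linear signal per probe set, a group of short probes to the same transcript, scaled to the same trimmed mean on every array. Of 31042 probe sets without the controls, 17465 had a mean signal of at least 100 over the 4 arrays and were tested, 13931 of them with a single gene symbol. Differences are given on the scale of log2(signal + 32), the later minus the earlier window, so that a positive value is higher at 12 and 24 hours. A probe set was called where limma gave an adjusted p under 0.05. The fit compared 2 arrays with 2, and its spread was that between the times of a window, not between replicate cultures. An exact two-sided permutation test of 2 against 2 arrays cannot give a p below 0.333, so none was used for a single value.

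By this rule, 37 probe sets were higher in the later window, which was 0.212% of those tested, and 23 were lower, which was 0.132%. An unadjusted p under 0.05 was reached by 1238 higher and 941 lower probe sets. The median difference over all probe sets tested was 0.01, and 5% of them lay below -0.41 and 5% above 0.46. A stricter rule of size asked both later signals to be at least 2-fold above, or below, both earlier ones after the addition of 32. It was passed by 18 probe sets in the higher direction, 0.103% of those tested, and by 5 in the lower direction, 0.0286%. Of these 18, 9 had a mean under 100 in the earlier window and were tested only because of their later signals, as were 4 of the 37 called higher, so these counts are descriptions. A mere absence of overlap between the windows was common, with both later arrays above both earlier ones in 23.4% of the probe sets and below in 20.7%. The counts leaned on every array. Dropping the array of 2 hours gave 111 called higher and 88 lower, dropping that of 6 hours 111 and 44, that of 12 hours 8 and 2, and that of 24 hours 4 and 5. Of the 37 called higher and the 23 called lower, 8 and 1 kept the call when the 12 hour array was dropped, and 4 and 5 when the 24 hour array was. The one lower gene in the first case was Ccl9, and the 5 in the second were Ccl9, Arpc4, C1qa, C1qc and Trpc6. With the spread estimated with no intensity trend, 5 and 1 were called. None of the 60 changed sign in any alternative, but most alternatives could not have changed it. The windows of all 60 do not overlap, so no array left out could reverse a sign. The settings with no trend, no filter or 6 arrays leave the difference itself as it is.

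**Figure D1:**
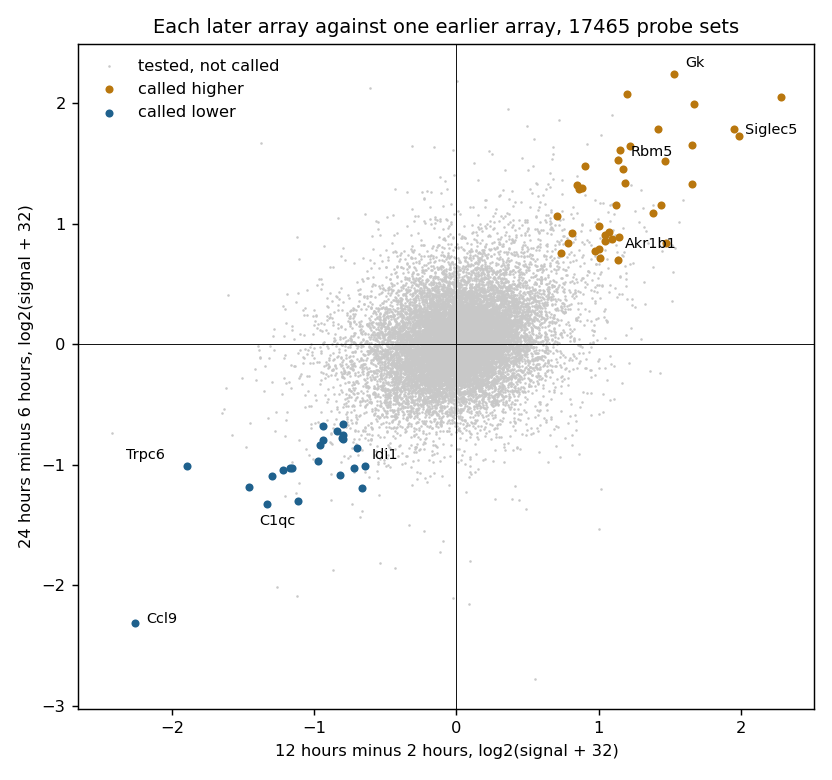
Each point is 1 of 17465 probe sets, with the 12 hour minus the 2 hour array on the horizontal axis and the 24 hour minus the 6 hour array on the vertical axis, both in log2(signal + 32). The 37 probe sets called higher lie in the upper right and the 23 called lower in the lower left, with Ccl9 at -2.26 and -2.31.

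One array quality control was ordered by window too. The signal ratio of the 3′ to the 5′ probe sets of β-actin rises as RNA is degraded or copied less completely towards its 5′ end. It was 1.53 and 1.83 at 2 and 6 hours and 1.95 and 2.20 at 12 and 24 hours. The same ratio for Gapdh was 1.10, 1.10, 1.10 and 1.16. The median signal was 146.4, 144.7, 147.2 and 151.5. The part of the β-actin ratio in the differences below was not tested.

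Ccl9, a CC chemokine of myeloid cells, had the lowest difference of all called probe sets. Its signals, in order of time, were 1419 and 1673 in the earlier window and 270.6 and 311.0 in the later one. Both later values were thus far below both earlier ones, 4.88-fold in the mean, with a difference of -2.29 ± 0.15 (SE) and a limma adjusted p of 0.000641. Ccl9 was called under all 13 alternatives in which it was tested, together with 3 probe sets that have no gene symbol. The 4 named genes past the rule of size in the lower direction were Ccl9, Trpc6, Arpc4 and Ms4a7.

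The 3 genes that encode the chains of C1q were lower together. C1qa had signals of 5330 and 6318 in the earlier window and 2147 and 2945 in the later one. C1qb went from 3046 and 3492 to 1336 and 1701, and C1qc from 2762 and 3531 to 1077 and 1393. In each of the 3 genes the 12 hour array was the lowest of the 4, and the 24 hour array still lay below both earlier arrays. The differences were -1.20 ± 0.16 for C1qa, -1.10 ± 0.14 for C1qb and -1.33 ± 0.16 for C1qc (SE), with limma adjusted p of 0.0201, 0.0194 and 0.0194. With the 12 hour array left out the adjusted p were 0.131, 0.131 and 0.108, while leaving out that of 24 hours gave 0.0395, 0.0741 and 0.0470.

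Other receptors and enzymes of macrophages were called lower as well. Clec4a3, a C-type lectin receptor of myeloid cells, had signals of 6593 and 6558 in the earlier window against 3334 and 3332 in the later one. Its difference was -0.97 ± 0.10 (SE, limma adjusted p = 0.0117), and the related receptors Clec4a1 and Clec4a were lower by -0.87 and -0.78. Ms4a7, a membrane protein of macrophages, went from 911.0 and 820.7 to 372.2 and 382.1, a difference of -1.13 ± 0.14. In Ms4a7 and Clec4a3 the pairs of arrays were close within each window, and the 2 windows lay apart, as in all 60 called probe sets. Hpgds, the hematopoietic prostaglandin D synthase, was lower by -0.89, Fcna, a ficolin of the lectin pathway of complement, by -0.87, Slco2b1, an organic anion transporter, by -0.79, and Coro1a, an actin-binding coronin of blood cells, by -0.73.

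The whole list of microglia and macrophage genes did not share this pattern. Of its 19 genes tested, 5 were called lower and none higher, the windows did not overlap in 8 with the later one below and in 1 with it above, and the median difference was -0.14. Of all probe sets, 0.132% were called lower, and 20.7% and 23.4% had the later window below and above. An unadjusted p under 0.05 was reached by 8 in the lower and by 0 in the higher direction. The summed signal of the list was 138600 and 168900 in the earlier window and 139100 and 140500 in the later one, which overlap. Without the 6 hour array the median of the list was 0.01, so its sign rests on that array.

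The defining markers of microglia parted. Csf1r, the receptor of the growth factor on which these cells depend, had signals of 5899, 6276, 6348 and 7465 in order of time, with the later window above the earlier one. Aif1, the calcium-binding protein IBA1, had signals of 4270, 4150, 3528 and 3049, a difference of -0.36 with a limma adjusted p of 0.231. Cx3cr1, the fractalkine receptor, was too dim to be tested, with signals of 90.01, 87.6, 61.6 and 52.3. Tyrobp, an adaptor of myeloid receptors, stayed between 13400 and 13730, and Cd68, a lysosomal protein of macrophages, between 13610 and 16400. P2ry12, the purine receptor of resting microglia, had signals of 386.0, 240.9, 149.2 and 129.1 and a difference of -0.98, which did not pass (adjusted p = 0.131 in limma).

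One myeloid receptor went the other way. Siglec5, an inhibitory lectin that binds sialic acid, had signals of 223.3 and 377.1 in the earlier window and 953.9 and 1383 in the later one. The later arrays were 3.66-fold higher in the mean, with a difference of 1.87 ± 0.24 (SE, limma adjusted p = 0.0194). Without the 24 hour array its adjusted p was 0.165.

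**Figure D2:**
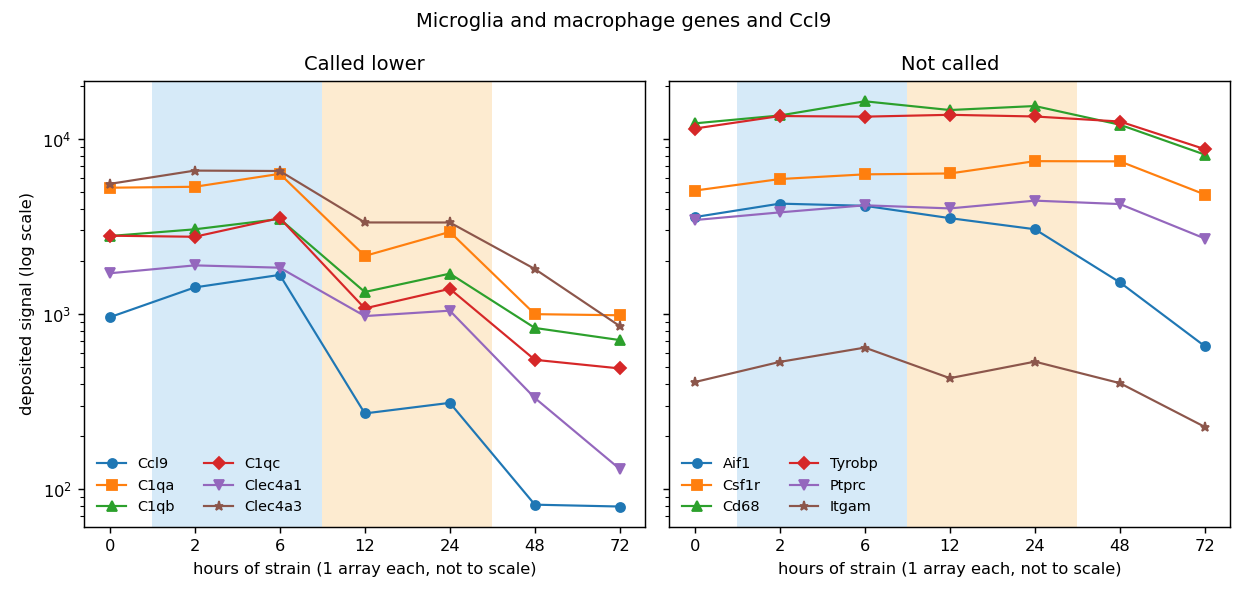
Deposited signal on a log scale at each of the 7 times, with the earlier window shaded blue and the later one orange, for 6 genes called lower on the left and 6 that were not called on the right. Each point is 1 array. The C1q, Clec4a and Ccl9 signals step down between 6 and 12 hours, while Tyrobp stays between 13400 and 13730 over the 4 arrays and Csf1r goes from 5899 to 7465.

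The sequence before the start of 3 of these genes is shown because they were lower together and 2 of them, C1qa and C1qb, are neighbours on 1 chromosome. The windows are the 250 bases upstream of the annotated start in RefSeq on the rat assembly GRCr8, 5′ to 3′ on the strand of the gene, at chr5:154419934-154420183 (minus strand) for C1qa, chr5:154407828-154408077 (minus strand) for C1qb and chr4:157886508-157886757 (plus strand) for Clec4a3. Capitals mark the letters GAGGAA on either strand, a strict spelling of the site recognised by PU.1, a transcription factor of the myeloid lineage. Other spellings of the site were not searched.
C1qa: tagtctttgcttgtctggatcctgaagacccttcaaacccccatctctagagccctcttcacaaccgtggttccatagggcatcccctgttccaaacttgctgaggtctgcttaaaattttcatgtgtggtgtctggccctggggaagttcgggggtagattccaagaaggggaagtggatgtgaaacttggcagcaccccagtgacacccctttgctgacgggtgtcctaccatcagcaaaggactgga
C1qb: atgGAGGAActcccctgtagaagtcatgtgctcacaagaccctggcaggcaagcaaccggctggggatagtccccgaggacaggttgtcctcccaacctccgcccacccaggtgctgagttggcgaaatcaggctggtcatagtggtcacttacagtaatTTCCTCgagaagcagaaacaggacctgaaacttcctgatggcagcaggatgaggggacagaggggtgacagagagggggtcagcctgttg
Clec4a3: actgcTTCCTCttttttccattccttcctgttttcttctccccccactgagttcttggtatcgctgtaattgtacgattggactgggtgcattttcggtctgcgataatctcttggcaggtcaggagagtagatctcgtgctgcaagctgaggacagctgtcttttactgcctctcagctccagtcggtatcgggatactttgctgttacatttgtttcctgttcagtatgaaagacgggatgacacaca
These letters stood in 13 of the 14 promoters found for the microglia and macrophage list, against 23.3% of all 33469 promoters in the table. C1qb holds 2 such matches and Clec4a3 holds 1, while the window of C1qa holds none of this spelling. The 13 include genes that were called lower and genes that were not, such as Csf1r and Cd68, so the letters did not separate them. Of the 21 promoters found for the 23 genes called lower, 9 held the letters. A match describes the sequence and is not a bound site.

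Of the 46 lists, that of cholesterol synthesis had the largest share of genes with the later window below. Of its 17 genes tested, 15 (88.2%) had both later arrays below both earlier ones and 1 had them above, against 20.7% and 23.4% of all probe sets. The median difference was -0.43 beside 0.01 over all probe sets. Arrays that share none gave -0.47 (12 minus 2 hours) and -0.39 (24 minus 6 hours) for the median of the list, and the median lay between -0.50 and -0.33 with each array left out. Only 1 of the 17 was called, while 11 reached an unadjusted p under 0.05 in the lower direction and 0 in the higher direction.

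The called member was Idi1, the isomerase that makes dimethylallyl diphosphate for isoprenoid synthesis. Its signals were 4253 and 4090 in the earlier window and 2612 and 2243 in the later one. The difference was -0.78 ± 0.12 (SE, limma adjusted p = 0.0305), and a dimmer probe set of the gene had a difference of -0.64. The adjusted p of Idi1 was 0.131 with the array of 12 hours left out and 0.315 with that of 24 hours left out. Next in size were Hsd17b7, a sterol reductase, with signals of 661.6, 523.9, 376.1 and 317.8 and a difference of -0.72 (adjusted p = 0.131 in limma), and Insig1, the sterol sensor that retains the SREBP proteins, with signals of 3825, 4308, 2734 and 2260 and a difference of -0.70 (adjusted p = 0.0601 in limma).

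Other further steps of the pathway had smaller differences. Dhcr7, the last reductase before cholesterol, differed by -0.55, squalene epoxidase Sqle by -0.50, farnesyl diphosphate synthase Fdps by -0.50, Cyp51, the lanosterol demethylase, by -0.46, and Sc5d, the sterol desaturase, by -0.43. None of these 5 was called. The exceptions to the pattern were Lss, lanosterol synthase, with signals of 662.6, 740.1, 795.6 and 819.7 and a difference of 0.20, and Srebf2, the gene of SREBP2 itself, whose windows overlapped at 1442, 1522, 1475 and 1108.

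**Figure D3:**
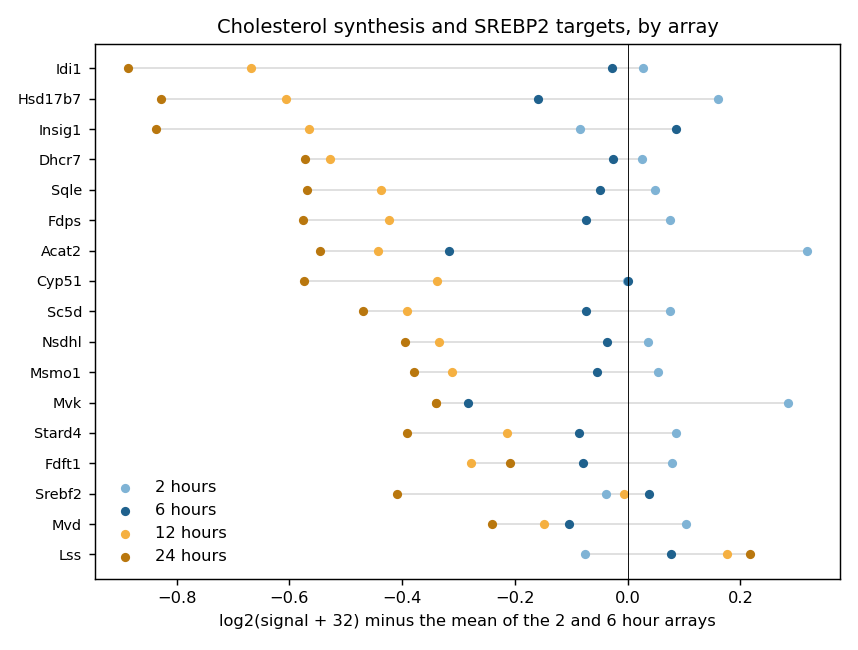
For each of the 17 tested genes of cholesterol synthesis, the points give log2(signal + 32) of the 4 arrays minus the mean of the 2 and 6 hour arrays of that gene. The 12 and 24 hour points lie to the left of both earlier points in 15 genes, to the right in Lss, and overlap them in Srebf2.

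The upstream sequence of the 3 genes of this list with the lowest differences is shown for their shared letters. The windows, again the 250 bases before the start in RefSeq on GRCr8, were chr17:66547525-66547774 (minus strand) for Idi1, chr13:84722755-84723004 (minus strand) for Hsd17b7 and chr4:8057770-8058019 (minus strand) for Insig1. Capitals mark CCAAT on either strand, the letters bound by NF-Y, a factor that works beside SREBP2 at many sterol-regulated promoters.
Idi1: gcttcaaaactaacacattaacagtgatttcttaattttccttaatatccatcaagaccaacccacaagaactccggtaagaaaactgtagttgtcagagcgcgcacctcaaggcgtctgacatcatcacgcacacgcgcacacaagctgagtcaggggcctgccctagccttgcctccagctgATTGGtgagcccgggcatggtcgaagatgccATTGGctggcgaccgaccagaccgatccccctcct
Hsd17b7: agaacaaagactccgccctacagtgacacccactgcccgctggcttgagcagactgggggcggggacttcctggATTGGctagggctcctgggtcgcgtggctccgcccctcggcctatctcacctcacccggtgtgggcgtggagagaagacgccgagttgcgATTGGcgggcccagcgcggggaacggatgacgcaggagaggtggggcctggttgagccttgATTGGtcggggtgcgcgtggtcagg
Insig1: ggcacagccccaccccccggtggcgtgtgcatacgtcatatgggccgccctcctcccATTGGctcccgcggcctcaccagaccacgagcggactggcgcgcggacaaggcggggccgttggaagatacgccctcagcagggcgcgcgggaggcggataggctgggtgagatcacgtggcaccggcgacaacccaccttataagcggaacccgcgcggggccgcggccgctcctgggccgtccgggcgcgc
CCAAT was found in 11 of the 14 promoters of the list (78.6%) and in 34% of all promoters in the table. It was in 4 of the 21 promoters found for genes called lower (19%) and in 9 of the 16 for genes called higher (56.2%). Idi1 held 2 matches, Hsd17b7 held 3 and Insig1 held 1. A strict spelling of the sterol regulatory element, TCACNCCAC on either strand, was in none of the 14 and in 0.974% of all promoters. Lss and Srebf2, which did not follow the list, hold CCAAT too, so the letters did not separate the genes that were lower from those that were not.

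Among the 37 probe sets called higher, 6 belong to genes that act in RNA splicing or carry the arginine and serine rich domain of splicing proteins. This grouping was made after their values were seen. The share of all tested genes that fit it was not counted, so whether 6 is more than that share is not known. Clk1, the kinase that phosphorylates SR splicing factors, had signals of 2462 and 2722 in the earlier window and 4263 and 4907 in the later one, a difference of 0.81 ± 0.12 (SE, limma adjusted p = 0.0278). Ccnl2, a cyclin of nuclear speckles, had signals of 1452, 1823, 2881 and 3142 and a difference of 0.87. In both genes, as in all called probe sets, the windows did not overlap. Pnisr and Rsrp1, nuclear proteins with serine and arginine repeats, differed by 0.89 and 0.75.

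Rbm5, an RNA-binding regulator of splice site choice, was called on 1 of its 3 probe sets, with signals of 636.0, 750.6, 1439 and 2233 and a difference of 1.34. The other probe sets of Rbm5 differed by 0.46 and 0.66 and were not called, but their windows did not overlap either. Hnrnpa2b1, an hnRNP protein, was less even. The probe set that was called had signals of 735.9, 939.5, 1701 and 2633, a difference of 1.31, while the brightest one had 5032, 3281, 3720 and 3636 and a difference of -0.14. These were the only opposite signs: of 26 further tested probe sets of the called genes, 23 had the sign of the called one, and the other 3 were those of Hnrnpa2b1.

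The list of ribosome biogenesis and splicing genes as a whole was not higher. Of its 20 genes tested, 1 (Clk1) was called higher, against 0.212% of all probe sets, and the median difference was -0.06. The later window was above in 3 (15%) and below in 5 (25%), against 23.4% and 20.7% of all probe sets. Clk4, a kinase of the same family, had signals of 685.9, 672.6, 974.3 and 1075 and a difference of 0.57 without passing the test (adjusted p = 0.122 in limma). U2af1, a subunit of the factor that reads the 3′ splice site, had a difference of -0.42, and Hnrnpa1 of -0.49, and neither was called. When the 24 hour array was dropped, Clk1, Ccnl2, Pnisr, Rsrp1, Rbm5 and Hnrnpa2b1 were not called, with adjusted p from 0.166 to 0.385.

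Many probe sets called higher have no gene name. A single symbol was given to 20 of the 37 called higher (54.1%) and to all 23 called lower, against 79.8% of all probe sets tested. Of the 18 past the rule of size in the higher direction, 3 had a symbol, namely Gk, Siglec5 and Spaca6. One of those without a symbol had signals of 762.1 and 921.9 in the earlier window and 3111 and 3127 in the later one, and another had 1015, 1051, 3306 and 4276. Their differences of 1.86 and 1.83 were above those of all called genes with a symbol other than Gk and Siglec5, and both were called under all 13 alternatives.

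Xist, the long noncoding RNA of the inactive X chromosome, was called on 2 of its 4 probe sets. The brightest had signals of 935.6, 1337, 2102 and 2504, a difference of 1.02 (limma adjusted p = 0.0477), and its adjusted p was 0.144 when the 12 hour array was dropped and 0.336 when the 24 hour array was. The windows of all 4 Xist probe sets were apart. Each array pooled animals, and the share of female tissue in a pool is not given in the sources used here. The Y-linked gene Eif2s3y had signals of 1634, 922.0, 730.9 and 1186, and Uty, also Y-linked, of 680.9, 543.1, 665.2 and 791.9. The windows overlapped in both, and the part of the share of female tissue was not tested.

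Other genes called higher serve metabolism, adhesion and repair. Akr1b1, aldose reductase, had signals of 5729 and 6270 in the earlier window and 12280 and 11520 in the later one, a difference of 0.99 ± 0.11 (SE, limma adjusted p = 0.0132). Ptgr1, a reductase of prostaglandins and reactive aldehydes, had signals of 820.0, 922.8, 1463 and 1776 and a difference of 0.87. Both later arrays were well above the earlier ones in these enzymes. Ddit4l, an inhibitor of mTORC1 related to REDD1, differed by 1.09, and its signals of 736.1 and 644.9 became 1383 and 1630.

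Itgav, the integrin αv subunit, was higher by 0.99 on the probe set that was called, with signals of 688.7, 675.6, 1413 and 1362. Its brightest probe set had 2639, 2277, 3306 and 3345 and a difference of 0.44 that did not pass (adjusted p = 0.169 in limma). Lig4, the DNA ligase of non-homologous end joining, was higher by 0.95, Pnpla7, a lysophospholipase, by 0.92, and Zfp347, a zinc finger protein, by 1.08. Gk, glycerol kinase, had the highest difference of a named probe set at 1.89, from signals of 167.5 and 83.8 to 545.2 and 515.7. The brighter probe set of Gk had 445.1, 641.1, 609.2 and 637.7 with overlapping windows and a difference of 0.21, so the 2 probe sets disagree in size. Spaca6, a protein of sperm and egg fusion, was higher by 1.24, and Lnc215, a noncoding transcript, by 1.19.

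The NRF2 list, genes of the antioxidant response, held no called gene. None of its 19 genes tested passed limma, while 6 reached an unadjusted p under 0.05 in the higher direction and 0 in the lower one. The later window was above in 8 (42.1%) and below in 0, against 23.4% and 20.7% of all probe sets, and the median difference was 0.30. Akr1b8, an aldo-keto reductase, had signals of 8432, 12590, 18930 and 21030 and a difference of 0.95 (adjusted p = 0.0579 in limma), and Me1, malic enzyme, had 938.0, 740.7, 1413 and 1455 and a difference of 0.76 (adjusted p = 0.0635). The classical targets Hmox1, heme oxygenase, and Srxn1, sulfiredoxin, overlapped between windows, because their 2 hour signals of 6491 and 3184 were low and those of 6 hours, 11390 and 5073, were already near the later level. Without the 2 hour array the median of the list was 0.11.

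**Figure D4:**
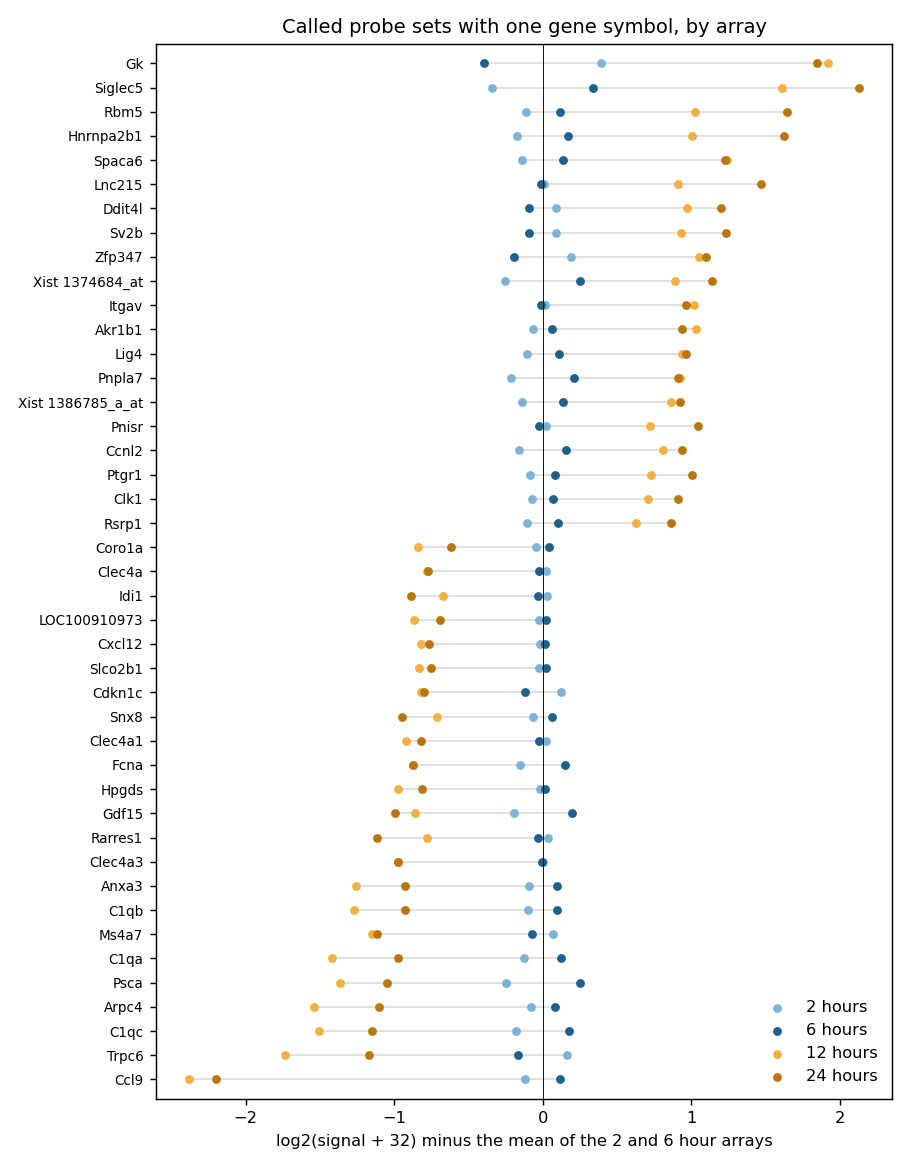
The 43 called probe sets with a gene symbol, 42 genes, by array. Each point is log2(signal + 32) of 1 array minus the mean of the 2 and 6 hour arrays of that probe set. The 12 and 24 hour points lie on the same side of both earlier points in every row, from Ccl9 at the bottom to Gk at the top.

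Further genes called lower had no common role. Trpc6, a cation channel opened downstream of phospholipase C, had signals of 1050 and 830.9 in the earlier window and 258.8 and 397.1 in the later one, a difference of -1.45 ± 0.20 (SE, limma adjusted p = 0.0271). Arpc4, a subunit of the Arp2/3 complex that nucleates branched actin, went from 3020 and 3380 to 1078 and 1470, a difference of -1.32. The windows of both genes did not overlap, as in all called probe sets. Psca, a membrane-anchored antigen, differed by -1.21, the annexin Anxa3 by -1.09, Rarres1, a gene induced by retinoids, by -0.95, and Snx8, a sorting nexin of endosomes, by -0.83. Gdf15, a stress cytokine of the TGF-β family, had signals of 1275, 1681, 791.4 and 719.1, a difference of -0.93 (limma adjusted p = 0.0462).

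Cxcl12, the chemokine that guides cells through CXCR4, was called on 1 of its 3 probe sets, with signals of 3284, 3364, 1873 and 1944 and a difference of -0.79. Its other probe sets differed by -0.56 and -0.73, and all 3 had the later window below. Cdkn1c, the cell cycle inhibitor p57, had signals of 8738 and 7378 in the earlier window against 4546 and 4604 in the later one, a difference of -0.81 ± 0.12 (SE, limma adjusted p = 0.0271). Cdkn1c was the only called member of the lists of G1 regulators, mitosis and DNA replication.

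The lists of DNA replication and of mitosis held no called gene. None of the 21 genes of DNA replication and S phase passed limma, while 7 reached an unadjusted p under 0.05 in the lower direction and 0 in the higher. The later window was below in 10 (47.6%, against 20.7% of all probe sets) and above in 0, and the median difference was -0.31. Ccne2, cyclin E2, had signals of 541.3, 227.3, 216.9 and 76.4 and a difference of -1.23 that did not pass (adjusted p = 0.26 in limma), since the 6 and 12 hour arrays nearly met. Of 24 genes of mitosis, 0 were called, 3 reached an unadjusted p under 0.05 in the lower direction, 10 (41.7%) had the later window below, and the median was -0.27. Without the 24 hour array these medians were -0.18 and -0.04, so the shift of the mitotic list rests on that array.

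Among the 4 arrays, the summed signal of neuronal growth cone genes was lowest at 12 hours. In the list of growth cone and microtubule genes, 11 of 20 (55%) had the later window below, against 20.7% of all probe sets, and 0 above, with a median difference of -0.42. No member passed limma, while 10 reached an unadjusted p under 0.05 in the lower direction. The 2 pairs of arrays that share none gave medians of -0.79 (12 minus 2 hours) and -0.13 (24 minus 6 hours). Tubb3, neuronal β-tubulin, had signals of 1139, 913.5, 453.1 and 609.4 and a difference of -0.92 (adjusted p = 0.0646 in limma). Mapt, the tau protein, had 1313, 1227, 510.3 and 1214, and Stmn4, a stathmin of neurons, had 1100, 995.0, 530.0 and 1059, so that their 24 hour signals were back near the earlier level.

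The same course, with the lowest of the 4 signals at 12 hours, was seen in further neuronal markers. Other neuronal lists mostly leaned lower, while that of transmission genes went both ways. Of 15 synaptic genes tested, 10 had a negative and 5 a positive difference, with a median of -0.23. The later window was below in 7 of them (46.7%) and above in 2 (13.3%), against 20.7% and 23.4% of all probe sets. The summed signal of that list was 7408, 6643, 6501 and 8293. Of 9 genes of GABA, glycine and glutamate transmission, 4 were negative and 5 positive, with a median of 0.06. Of 10 neuronal RNA-binding and transcription factor genes, 9 were negative and 1 positive. Their median was -0.26, and -0.01 without the 12 hour array. Of 7 voltage-gated channel genes, 6 were negative and 1 positive, with a median of -0.23, and -0.07 without that array. Snap25, a SNARE protein of synaptic vesicles, had signals of 1308, 1138, 578.7 and 1003, Gap43, a growth cone protein, 2752, 2142, 1476 and 1786, and Elavl4, a neuronal RNA-binding protein, 415.1, 387.8, 232.9 and 305.3. None of the 3 was called. Rbfox3, the NeuN antigen, had 232.1, 203.3, 113.8 and 209.3. The summed signal of the growth cone list was 32750 and 27360 in the earlier window and 21480 and 26900 in the later one. Sv2b, a synaptic vesicle glycoprotein, was an exception, with signals of 1434 and 1265 against 2604 and 3213 and a difference of 1.08 ± 0.14 (SE, limma adjusted p = 0.0194), the sole called member of the 15 synaptic genes tested.

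Markers of the other cell types gave no call outside the microglia list. Of 17 genes of astrocytes and radial glia none passed limma, 3 reached an unadjusted p under 0.05 in the higher and 1 in the lower direction, and the median was 0.27. The later window was above in 6 (35.3%) and below in 2 (11.8%), against 23.4% and 20.7% of all probe sets. With quantile normalization it was above in 4 and below in 3. Gfap, the astrocyte filament, had signals of 9169, 6288, 9661 and 10640, and Aqp4, the water channel, 6770, 3174, 5972 and 7682, both lowest at 6 hours. Without the 6 hour array the median of the list was 0.07. The fibroblast and meningeal genes had a median of 0.03, and Col1a1, the chain of type I collagen, had signals of 16020, 16760, 17440 and 16850. Skeletal muscle genes were present although the tissue was spinal cord, and Myog, the muscle factor myogenin, had signals of 1023, 1411, 614.2 and 783.8 and a difference of -0.77 (adjusted p = 0.125 in limma). Pecam1 of the endothelium and Olig2 of the oligodendrocyte lineage were too dim to be tested, with signals of at most 26.1 and 47.7 on the 4 arrays. Other genes of their lists were tested. Of 5 endothelial genes, 5 were positive, 3 (60%) had the later window above and 0 below, and the median was 0.23. Of 6 oligodendrocyte lineage genes, 5 were negative and 1 positive, 2 (33.3%) had the later window below and 0 above, and the median was -0.13.

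Ccl9 was the only called gene of the chemokine and cytokine list. Of 22 chemokine and cytokine genes tested, 1 (Ccl9) was called lower, 10 (45.5%) had the later window below and 1 above, and the median difference was -0.36. Of all probe sets, 0.132% were called lower, and 20.7% and 23.4% had the later window below and above. An unadjusted p under 0.05 was reached by 7 in the lower direction and by 0 in the higher. Ccl7, a monocyte chemokine, had signals of 3167, 2617, 1754 and 1798 and a difference of -0.69 (adjusted p = 0.0597 in limma), Il33, an alarmin, 455.9, 492.3, 263.8 and 219.8 and a difference of -0.89 (adjusted p = 0.0646), and Il1b, interleukin 1β, 216.1, 257.3, 145.7 and 130.1 and a difference of -0.66 (adjusted p = 0.217). Il6 and Cxcl2 peaked at 6 hours, with 236.8 and 401.2, so their windows overlapped. Without the 6 hour array the median of the list was -0.14.

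Of 15 interferon response genes, 9 (60%) had the later window below and 0 above, against 20.7% and 23.4% of all probe sets. None passed limma, 6 reached an unadjusted p under 0.05 in the lower direction, and the median was -0.21. Mx1, an antiviral GTPase, had signals of 462.8, 372.1, 213.4 and 176.9 and a difference of -0.98, and Irf7, a transcription factor of the interferon response, 1278, 1379, 861.3 and 804.4 and a difference of -0.65. Both had an adjusted p of 0.0651 in limma.

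Of the stress genes, Gdf15 was the only called member of the lists of heat shock and of the integrated stress response. The later window was above in 7 of 17 heat shock genes (41.2%) and in 11 of 26 genes of the integrated stress response (42.3%). It was above in 23.4% of all probe sets. In the 2 lists it was below in 2 (11.8%) and 4 (15.4%), against 20.7% of all probe sets. With arrays scaled to the same median, it was above in 4 heat shock genes and in 8 of the integrated stress response. The medians were 0.09 and 0.12, and they were 0.03 without the 2 hour array and 0.08 without that of 24 hours, in the same order. Nupr1, a stress-induced nuclear protein, had signals of 1052, 916.4, 1905 and 1508 and a difference of 0.77 (adjusted p = 0.0646 in limma), and Hspa4l, a chaperone of the HSP110 family, 246.9, 192.5, 679.0 and 370.2 and a difference of 1.10 (adjusted p = 0.125). Of 26 genes of the apoptosis core, 7 (26.9%) had the later window above and 7 (26.9%) below, near the 23.4% and 20.7% of all probe sets. The median was -0.02, and none passed limma, with 3 higher and 2 lower at an unadjusted p under 0.05. Casp9, the initiator caspase of the mitochondrial pathway, had signals of 484.7, 526.7, 369.1 and 358.5 and a difference of -0.44 (adjusted p = 0.265 in limma).

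The MAPK genes that the study followed by RT-PCR gave no call between the windows either, each taken as its brightest probe set. The paper compared each time with 0 hours instead. It reported increases in all of these genes, first seen in the later window for some and after it for the others. Of the 9 that could be tested, 2 (22.2%) had the later window above, near the 23.4% of all probe sets, and 0 below, the median was 0.32, and 2 reached an unadjusted p under 0.05 in the higher direction. These were Map4k4, a kinase upstream of JNK, with signals of 4315, 5150, 5504 and 6733 and a difference of 0.37, and Ddit3, the stress factor CHOP, with 567.0, 841.6, 969.9 and 1075 and a difference of 0.54. Without the 2 hour array the median was 0.08. The paper lists a Pdgfrb probe set whose values, relative to 0 hours, are higher at both later times than at both earlier ones. Pdgfrb was not among the 2 genes counted here with the later window above. Probe sets other than the brightest were not part of this list. Dusp1, a phosphatase of MAPKs, had 702.0, 1242, 1376 and 1069, and Gadd45a, a growth arrest gene, 1346, 2106, 2094 and 2031, so that the step in both lay between 2 and 6 hours, inside the earlier window.

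No matrix gene of the collagen list was called. Among 29 collagens and matrix glycoproteins, 14 (48.3%) had the later window above and 1 below, against 23.4% and 20.7% of all probe sets, and the median was 0.12. None passed limma, with 5 higher and 0 lower at an unadjusted p under 0.05. With arrays scaled to the same median, 9 had the later window above. The median was 0.05 without the array of 12 hours, 0.07 without that of 6 hours, and 0.20 without those of 2 or 24 hours, 1 at a time. Bgn, the proteoglycan biglycan, had signals of 4284, 3789, 5495 and 5081 and a difference of 0.39, and the basement membrane collagen Col4a2 had 3030, 3136, 3992 and 3556 and a difference of 0.29. Among the proteases, Mmp9, gelatinase B, had 12460, 16240, 7719 and 8581 and a difference of -0.80, just short of the threshold (adjusted p = 0.0521 in limma), while Mmp3, stromelysin, had 243.9, 466.5, 652.1 and 1061 and a difference of 1.22 (adjusted p = 0.125).

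**Figure D5:**
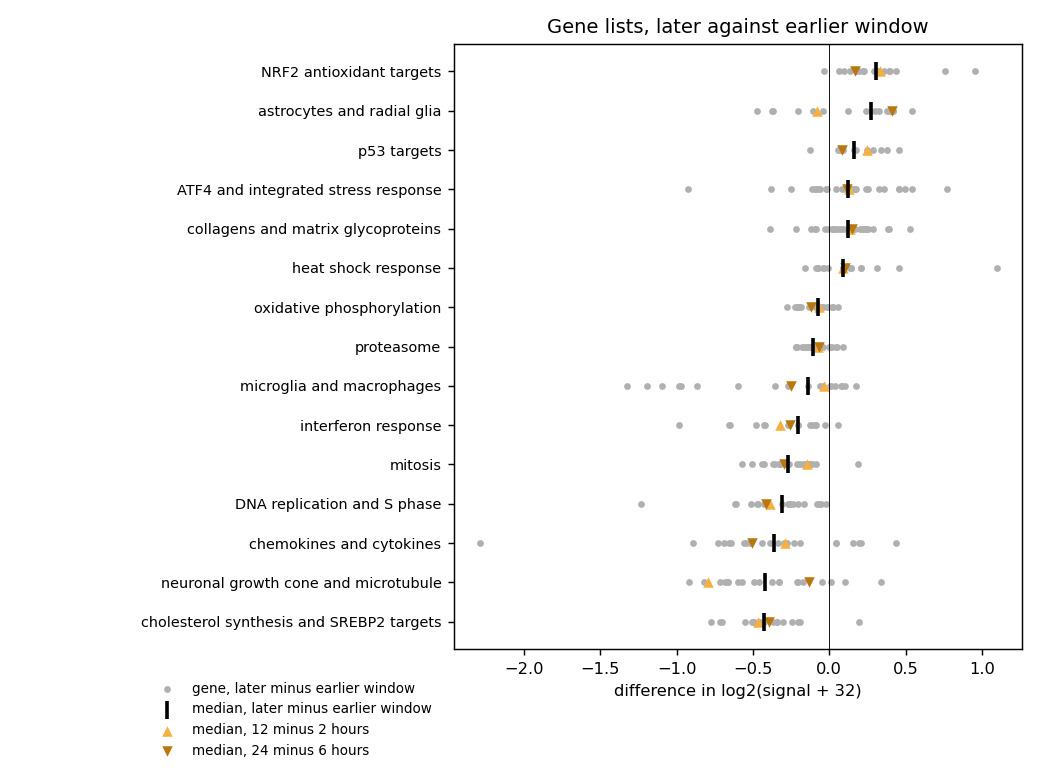
For 15 gene lists, grey points are the later minus earlier differences of the tested genes in log2(signal + 32), the black bar is their median, and the triangles are the medians of 12 minus 2 hours and of 24 minus 6 hours. Cholesterol synthesis has nearly the same median in both pairs of arrays, -0.47 and -0.39, while the neuronal growth cone list has -0.79 and -0.13.

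The arrays of 0, 48 and 72 hours, which the comparison did not use, were set beside the 4 arrays. At 0 hours the signal was no higher than the brighter earlier array in 17 of the 37 called higher. It was no lower than the dimmer earlier array in 5 of the 23 called lower. In the others it lay on the later side of both earlier arrays. Those differences thus include a move away from the 0 hour level by 2 and 6 hours. Rbm5, for example, had a signal of 1357 at 0 hours and Psca of 1445. Of the 37 probe sets called higher, 36 were also higher on the mean of the 48 and 72 hour arrays than at 0 hours, and 29 of them by at least 1, against 48.2% and 3.93% of all probe sets tested. All 23 called lower were lower at 48 and 72 hours than at 0 hours, 18 of them by at least 1, against 51.8% and 6.65%. In 29 of the 37 and in 18 of the 23, both late arrays went beyond both arrays of the later window in the same direction, against 27.7% of all probe sets above and 31% below. At 0, 48 and 72 hours the signals of Akr1b1 were 4498, 21160 and 24980, those of Clk1 were 2700, 6961 and 7490, and those of C1qa were 5264, 998.2 and 983.7.

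Some genes turned back and others held their level. Idi1 had signals of 4401, 2180 and 2447 at the same 3 times, so it stayed near its 24 hour value of 2243. Insig1 was back at 3387 at 72 hours and Cyp51 at 5081, near the 0 hour values of 3868 and 5654. Cdkn1c, at 12620 at 0 hours, was at 5409 and 3682, and Arpc4, at 2546 at 0 hours, stayed at 1232 and 1415. The β-actin ratio went on from 1.82 at 0 hours to 2.54 at 48 hours and 2.62 at 72 hours, and its part in these later values was not tested.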

How the data were processed

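The authors pooled RNA from 5 animals per time, hybridised it to Affymetrix Rat Genome arrays, and, per the submitters' processing notes, computed MAS5 signals in GCOS, versions not given in the sources used here. The deposited values are linear signal intensities scaled to a trimmed mean of 500. Low signals are unreliable after such background subtraction. Controls were left out. The windows were compared with limma 3.58.1 (in R 4.3.3) by a linear model whose moderated spread followed the mean signal, leaving 2 residual degrees of freedom, and p-values were adjusted by Benjamini-Hochberg over 17465 probe sets, after a test on simulated data. Fold changes are on the log2(signal + 32) scale and understate low genes. Lists and motifs were described in Python 3.11.15 with pandas 2.3.3, without set tests. The 1 symbol of 20826 probe sets comes from GEO's platform annotation, which can be old, and 20758 matched GRCr8. A gene in a list is its brightest probe set. Named were the 12 highest and 12 lowest genes called on their brightest probe set, up to 4 called members per list, cell type markers and the MAPK genes; others were chosen after their values were seen. The members and all 46 lists were chosen with earlier results of these data known. Alternatives changed the pseudocount, filter, scaling, spread, thresholds and arrays. The number of arrays limits the precision.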

Additional observations from a re-analysis of the deposited data

How the results depend on the processing

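With 1 array per time, the spread between cultures is unknown, and low signals limit what can be seen. The calls were 37 higher and 23 lower. They numbered 3 and 1 with no filter on mean signal, 5 and 1 with no intensity trend, 76 and 61 with arrays scaled to the same median, 100 and 61 at an adjusted p under 0.1, and 51 and 10 in a fit of 6 arrays in 3 windows. With single arrays left out they ranged from 4 to 111 higher and from 2 to 88 lower, the fewest without the 12 or 24 hour array. Past the rule of size were 18 and 5. These became 7 and 1 with a pseudocount of 100, 10 higher when the filter was raised to 200 and also when the window means had to differ by 200 signal units, 12 lower with no filter, 232 and 113 with a gap of 0.5, and 30 to 86 higher and 16 to 42 lower with single arrays left out. By its definition, the rule of size can only keep or gain probe sets when an array is left out, and all 18 and 5 were kept. The cause of the other shifts was not tested. None of the 60 called probe sets changed sign under the alternatives, most of which could not change it. Of the 60, 4 were called under all alternatives in which they were tested. Of 1047 values of 81 probe sets under alternatives, 784 kept their side of the threshold, 257 lost it and 6 gained it. Of 598 alternative list medians, 88 moved by more than the spread within windows. Scaling moved the median of all probe sets to -0.03 at the most. No paired analysis was possible because each time has 1 array and the labels give no replicate numbers.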
